A study of Mus musculus with 36 samples.

Results

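Clusters of imprinted genes were examined for H3K4me3 and for binding of Nanog, Sox2 and Oct4 in mouse embryonic stem cells. The members were all peaks of the authors' 14 peak lists that lay in 6 windows of the mm9 genome: H19-Igf2 on chromosome 7 from 149.70 to 149.90 Mb, Dlk1-Meg3 on chromosome 12 from 110.65 to 110.85 Mb, Peg3 on chromosome 7 from 6.62 to 6.72 Mb, Peg10 on chromosome 6 from 4.65 to 4.76 Mb, Mest on chromosome 6 from 30.63 to 30.75 Mb, and Igf2r on chromosome 17 from 12.83 to 13.01 Mb. The windows held 133 of the 292990 peaks on the main chromosomes. Of these, 34 were in the Dlk1-Meg3 window, 33 in the Peg3 window, 28 in the Peg10 window, 14 each in the H19-Igf2 and Mest windows and 10 in the Igf2r window.

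The cells were KH2, an established mouse embryonic stem cell line, in serum medium with LIF on feeder cells, after 24 hours in 2i with LIF, or after 3 passages in 2i with LIF. 2i is a serum-free medium with a pair of kinase inhibitors. Nanog was precipitated with 2 lots of 1 antibody. Serum, 24 h and 3 passage cells were treated with lot 1. Lot 2 went to serum cells labelled GFP-high, to KH2 cells at 24 h and to TKO cells at 24 h. TKO cells are embryonic stem cells in which the DNA methyltransferases are knocked out. The labels do not say which reporter GFP-high refers to, or from which line or clone the TKO cells came. H3K4me3 and Sox2 had lists for serum, 24 h and 3 passages, and Oct4 for serum and 24 h.

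Imprinted genes are expressed mainly from the copy inherited from 1 parent. The choice is set by differentially methylated regions, which carry DNA methylation on 1 parental copy only and keep it through early development. Igf2 is a growth factor expressed from the paternal copy, and H19 is a long non-coding RNA expressed from the maternal copy. Dlk1, a membrane protein of the Notch ligand type, and the non-coding RNA Meg3 form a like pair. Peg3, a zinc finger protein, Peg10, a gene derived from a retrotransposon, and Mest, a protein of the hydrolase fold, are expressed from the paternal copy. Igf2r, the receptor that clears Igf2, is expressed from the maternal copy, and the non-coding RNA Airn is transcribed from the other. H3K4me3 is a histone mark of active promoters. The peak lists do not separate the parental copies.

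The gene starts known for these loci are of the assembly GRCm38.p6, another build than that of the peaks, so no peak was assigned to a gene, exon or promoter. In the order of that assembly, H19 lies near Igf2 and Ins2, Peg3 near Zim1 and Usp29, and Peg10 near Sgce. Mest lies between Cep41 and Copg2, Igf2r near Airn, and Meg3 between Dlk1 and Rtl1. A peak in the Mest window can therefore belong to a neighbour of Mest, and the same holds for the other windows.

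RefSeq promoter windows, 250 bases before to 50 after the start in GRCm38.p6, were searched for TGCCGC on both strands. This is the site at which Zfp57, a zinc finger protein that keeps imprints methylated, binds methylated DNA. Entries for 6 of the 8 members were used, with 12 starts in all, and H19 and Peg10 are named only. The motif was found at 4 of the 12 starts, against 11.6% of all 32851 promoter windows. Those 4 starts include a pair of Mest starts that share nearly all of their bases. The Mest and Meg3 stretches are shown because the Mest window held the most Nanog regions called in TKO cells alone, and the Dlk1-Meg3 window the strongest TKO peak. For each of these genes the first start with TGCCGC upstream was taken, so the stretches hold the motif by choice. The Igf2r, Peg3 and Dlk1 starts held 0 matches, and the promoter window of Igf2r held 34 CpG. A link between the motif and TKO peaks was not tested. Capitals mark TGCCGC, here read on the other strand as GCGGCA. The Mest stretch is chr6:30737800-30738049, plus strand, and the Meg3 stretch chr12:109540746-109540995, plus strand, both GRCm38.p6.
Mest: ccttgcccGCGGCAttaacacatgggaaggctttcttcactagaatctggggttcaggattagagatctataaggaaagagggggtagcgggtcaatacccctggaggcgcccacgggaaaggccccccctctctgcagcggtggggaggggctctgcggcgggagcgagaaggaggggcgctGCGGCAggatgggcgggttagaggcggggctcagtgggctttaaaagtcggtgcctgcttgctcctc
Meg3: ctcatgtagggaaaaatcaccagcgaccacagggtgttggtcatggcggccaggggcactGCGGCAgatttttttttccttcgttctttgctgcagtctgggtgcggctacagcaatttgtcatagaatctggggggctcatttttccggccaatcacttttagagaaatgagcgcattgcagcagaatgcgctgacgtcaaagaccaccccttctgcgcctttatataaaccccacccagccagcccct
The Mest window of this start held 17 CpG and 2 matches, and the one of an upstream Mest start 8 CpG and 0 matches. The Meg3 window held 13 CpG, and that of a downstream Meg3 start 1 CpG and 0 matches of TGCCGC, and the median over all promoter windows was 7. The octamer ATGCAAAT, bound by Oct4, was found at 0 of the 12 starts, against 1.74% of all windows. The Sox motif CATTGT was found at 1 of them, an Igf2 start, against 12.6%. These matches describe the reference sequence and do not show that a factor was bound.

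Each condition had 1 list of peaks, named by the authors as a call on pooled replicates, so there was no spread between replicates and no test between conditions. For 6 of the 14 lists the labels hold 1 sample, and for 8 they hold 2. The 6 are all Nanog lists of lot 2, TKO among them, both Oct4 lists and the 3 passage list of Sox2. Read depth is unknown. Fold enrichment is the authors' ratio of a peak's signal to the control, and it is not known to be on the same scale in different lists. A percentile, where given, is the share of peaks of the same list with the same or a lower fold. The lowest −log10 q was 3.69 in the 24 h list of Sox2 and 86.4 in the serum list of Oct4, so absence from a list does not mean the same strength in each.

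Pooled over the 6 windows, peaks of H3K4me3 were denser than over the genome in all 3 conditions. There were 12 peaks in the serum list, 11 in the 24 h list and 12 in the 3 passage list, or 1.81, 1.83 and 1.84 times the density of the whole list. The excess was not found in each window. The H19-Igf2 window of 200 kb and the Igf2r window of 180 kb held 1 peak each in every list. That is below the whole lists, which had 7.30, 6.60 and 7.17 peaks per Mb in the same order. In serum, chromosome 7 had 9.78 per Mb and chromosome 17 had 9.94. The windows were drawn around genes, and a comparison with windows around other genes was not made. The TKO Nanog list had 27 peaks in the windows, 2.03 times its density over the genome. The 5 KH2 Nanog lists had 5 to 12 peaks, 0.663 to 1.14 times theirs. Sox2 had 7 peaks in serum, 6 at 24 h and 3 after 3 passages, 1.55, 1.14 and 0.995 times the density of its lists. Oct4 had 3 in serum and 5 at 24 h, or 1.74 and 1.86 times.

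**Figure D1:**
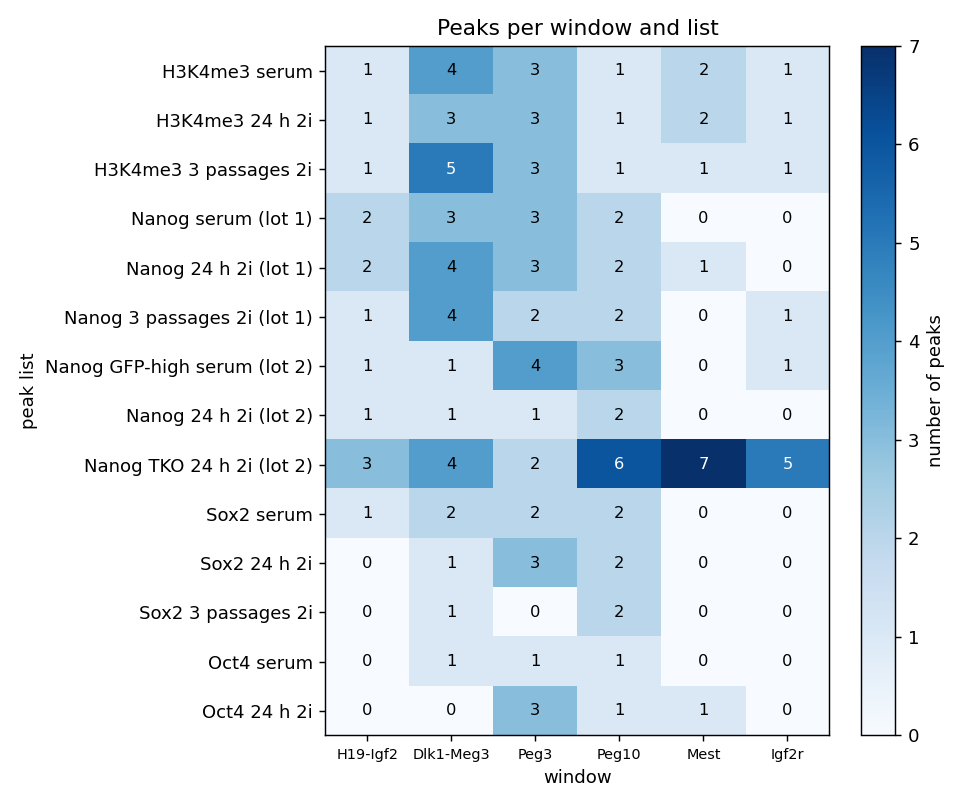
Number of the authors' peaks in each of the 6 windows (columns) for each of the 14 lists (rows), with darker cells for higher counts. The TKO Nanog row holds 7 peaks in the Mest window and 5 in the Igf2r window, where the KH2 Nanog rows hold 0 or 1.

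H3K4me3 was found in every window and every condition, at 12 regions in all, and 9 of these were called in all 3 lists, as were 57.4% of regions over the genome. For each pair of conditions the peaks of both lists were joined anew. Between serum and 24 h, 10 of 12 regions were shared, 2 were called in serum alone and 0 at 24 h alone. Over the genome 69% were shared, 24.7% were of serum alone and 6.27% of 24 h alone. From serum to 3 passages, 10 regions were shared, 1 was of serum alone and 1 of 3 passages alone, against 65.8%, 20.6% and 13.6%. All regions that were not shared by the 3 lists lay in the Dlk1-Meg3 window, which thus held the only differences in H3K4me3 calls between serum and 2i.

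The length of the mark also differed, in some windows more than in others. H3K4me3 peaks covered 17697 bp of the windows in serum, 9903 bp at 24 h and 11453 bp at 3 passages. The Dlk1-Meg3 window alone held 7491, 3406 and 4272 bp of this. The whole lengths are 56.0% and 64.7% of that in serum, where the whole lists covered 70.0% and 84.4%. These pooled shares do not hold for each window. The Peg10 window held 2621, 449 and 423 bp, but the Peg3 window 3800, 3675 and 3287 bp and the H19-Igf2 window 843, 838 and 851 bp. The Mest window held 1402, 892 and 1594 bp and the Igf2r window 1540, 643 and 1026 bp. The median fold of the peaks in the windows was 10.4, 5.74 and 6.84, and that of all peaks was 12.6, 8.16 and 10.003. Of the 9 regions in all 3 lists, 8 were narrower at 24 h than in serum, where 88.7% of such regions were narrower over the genome. At 3 passages 7 of the 9 were narrower, against 68.8%. The direction was thus that of the whole list. The covered length was added as a measure with the results in view. With the lists cut at a common lowest −log10 q, the length at 24 h was 29.9% of that in serum in the windows and 61.5% over the genome. With lists of equal length these shares were 62.0% and 73.3%.

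Relative to serum, the Peg10 window had the shortest H3K4me3 in both 2i lists. Its H3K4me3 region, on chromosome 6 from 4696341 to 4698961, was 2621 bp long in serum, 449 bp at 24 h and 423 bp at 3 passages. Its fold was 12.2 in serum, 5.89 at 24 h and 4.85 at 3 passages, at percentiles 48.6, 31.8 and 7.51 of the lists. It was several times longer in serum than in either 2i list, and it was a middling peak of the serum list and a low one of the 3 passage list.

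In the Igf2r window the H3K4me3 region, on chromosome 17 from 12961469 to 12963008, was 1540 bp long in serum, 643 bp at 24 h and 1026 bp at 3 passages. The fold was 15.6, 5.89 and 7.09, at percentiles 61.1, 31.7 and 32.6. Both 2i lists had it shorter and lower in rank than serum. In the Mest window the peaks of the single region, on chromosome 6 from 30642861 to 30644510, covered 1402 bp, 892 bp and 1594 bp, with highest folds of 15.9, 7.14 and 11.9. There the length at 3 passages was the longest of the 3.

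The H19-Igf2 window held a single H3K4me3 region, on chromosome 7 from 149718935 to 149719800. Its length hardly differed, at 843, 838 and 851 bp, while its fold was 16.0 in serum, 5.74 at 24 h and 10.1 at 3 passages, at percentiles 62.5, 30.4 and 50.3. In the Peg3 window all 3 regions were called in all 3 lists. The longest, on chromosome 7 from 6681583 to 6684324, was 2371 bp long in serum, 2700 bp at 24 h and 2233 bp at 3 passages, and was the only region of the 9 that was longer at 24 h than in serum. Its neighbour from 6680218 to 6681089 had a fold of 9.62 in serum, 7.08 at 24 h and 11.4 at 3 passages.

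In the Dlk1-Meg3 window the longest H3K4me3 region, from 110778136 to 110781231, was covered over 3083 bp in serum, 2287 bp at 24 h and 2360 bp at 3 passages. Its highest fold was 11.2, 5.22 and 12.4. The region from 110691068 to 110692483 was called only in serum, with a −log10 q of 10.7, close to the lowest value of that list, 10.5. Another from 110765747 to 110766972 was called in serum and at 3 passages but not at 24 h, and one from 110763484 to 110763917 at 3 passages only, with a −log10 q of 16.2 against a lowest value of 14.3. The regions called in 1 list alone thus lay near the limits of those lists, while the one shared by serum and 3 passages had a −log10 q of 16.4 and 26.2 there.

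**Figure D2:**
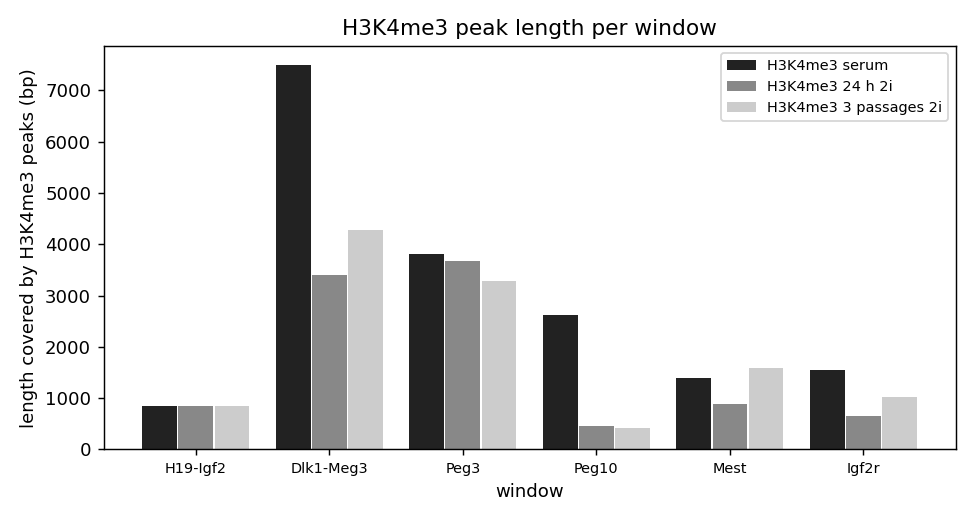
Length covered by H3K4me3 peaks in each window (bp), for serum, 24 h and 3 passages of 2i, with 1 list per bar and no error. The Peg10 bars stand at 2621, 449 and 423 bp, and those of H19-Igf2 at 843, 838 and 851 bp.

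Factor binding fell on 38 regions, formed by joining the overlapping peaks of all 11 factor lists. Of these, 24 were called in 1 list only, 20 of them in the TKO list, and 7 were called in at least 4 lists. Over the genome 41% of factor regions were in 1 list and 34.6% in at least 4. Those 7 lay in the Peg10, Peg3, Dlk1-Meg3 and H19-Igf2 windows. The Igf2r window held no Sox2 or Oct4 peak, the Mest window no Sox2 peak, and the H19-Igf2 window no Oct4 peak.

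The Peg10 window held the only region called in all 11 lists, on chromosome 6 from 4687356 to 4690785. Oct4 covered it with a single long peak, with a fold of 38.0 in serum and 54.9 at 24 h. These were ranks 434 of 5011 and 428 of 7820 by fold. Nanog and Sox2 were called there as a pair of peaks in each list. The summits of the first peak lay within 75 bp of each other over 9 lists, those of the second and of Oct4 within 55 bp over 11 lists, and the median summits of both groups were 1147 bp apart. The nearest H3K4me3 summit was 6887 to 8104 bp away from any of these summits.

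In the first of the paired Peg10 peaks the fold of Nanog was 37.0 in serum, 30.5 at 24 h and 19.9 at 3 passages with lot 1. With lot 2 it was 32.6 in GFP-high serum cells, 13.3 in KH2 cells at 24 h and 27.4 in TKO cells. The TKO value stood at percentile 88.6 of its list, beside 61.8 for KH2 at 24 h and 88.5 to 92.2 for both serum lists. In the second peak the Nanog folds were 28.8, 23.5, 14.6, 33.1, 16.5 and 23.7 in the same order. Sox2 had folds of 18.8, 7.76 and 5.45 there in serum, at 24 h and at 3 passages, at percentiles 87.0, 69.1 and 26.4. In the first peak its percentiles were 60.2, 68.5 and 1.77, so serum and 24 h stood in the other order. Both factors were thus called in every condition, and their rank was lowest at 3 passages for Sox2 and at 24 h with lot 2 for Nanog.

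The Peg3 window held the next most shared region, on chromosome 7 from 6711631 to 6713945, called in 9 of the 11 lists. It was called for Nanog in all 5 KH2 lists, with folds of 16.9 in serum, 16.6 at 24 h and 8.98 at 3 passages of lot 1, and 24.8 in GFP-high cells and 6.58 at 24 h of lot 2. Oct4 was called in both lists, with folds of 17.3 in serum and up to 18.2 at 24 h. Sox2 had 8.78 in serum and up to 4.05 at 24 h. Its 24 h peaks had a −log10 q of 3.85 and 5.29, where that list starts at 3.69. The region was missing from the Sox2 list of 3 passages and from the TKO Nanog list. Of the 2 regions in the windows that all 5 KH2 Nanog lists called, it was the one without a TKO peak, where 20.6% of all such regions lacked one.

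Further down the Peg3 window, Nanog met H3K4me3 in the region from 6680416 to 6681745. There it was called at 24 h and 3 passages with lot 1, in GFP-high serum cells and in TKO cells, with folds of 10.2, 6.42, 5.84 and 23.4. The TKO peak stood at percentile 85.3 of its list, and the KH2 peaks at 3.96 to 46.4 of theirs. Nanog of lot 1 in serum and of lot 2 in KH2 cells at 24 h had no peak there. The region from 6706087 to 6706848 was called for Nanog in both serum lists, for Nanog at 24 h with lot 1 and for Sox2 in serum, with folds from 8.81 to 16.3.

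In the Dlk1-Meg3 window 2 regions stood out by the number of lists. The first, on chromosome 12 from 110763741 to 110764597, was called for Nanog only, with folds of 12.4, 20.2 and 12.3 in serum, at 24 h and at 3 passages of lot 1, 8.88 at 24 h of lot 2 and 46.3 in TKO cells. The TKO peak was at percentile 95.5, rank 1729 of 38518 peaks, and was the strongest TKO peak of all 6 windows. KH2 cells at 24 h with the same lot had it at percentile 32.4.

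The second, from 110767057 to 110768197, was called in 8 lists and overlapped H3K4me3 in all 3 conditions. It held Sox2 with folds of 11.1, 4.42 and 6.85 in serum, at 24 h and at 3 passages, and Oct4 in serum only, with a fold of 15.6. The Sox2 peak at 24 h had a −log10 q of 3.93, close to the lowest of its list, 3.69. Nanog was called there in serum, at 24 h and at 3 passages of lot 1, with folds of 13.8, 7.47 and 5.36, and in GFP-high serum cells with 9.33. Neither 24 h list of lot 2, KH2 or TKO, had a peak there. The percentiles of lot 1 were 58.2, 22.8 and 10.5, so the rank was highest in serum. In the first region, by contrast, the rank within lot 1 was highest at 24 h, at percentile 78.2 beside 51.5 in serum.

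In the H19-Igf2 window the leading region, on chromosome 7 from 149841513 to 149842223, was called for Nanog in serum, at 24 h and at 3 passages of lot 1, with folds of 21.9, 27.2 and 16.7. With lot 2 the folds were 8.81 in KH2 cells at 24 h and 9.29 in TKO cells, and GFP-high cells had no peak. The percentiles were 78.9, 87.0 and 79.5 with lot 1. With lot 2 they were 31.8 in KH2 cells at 24 h and 35.8 in TKO cells. Sox2 was called there in serum only, with a fold of 12.1. A weaker region from 149796919 to 149797326 was called for Nanog in both serum lists and at 24 h of lot 1, with folds of 5.44 to 7.99.

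**Figure D3:**
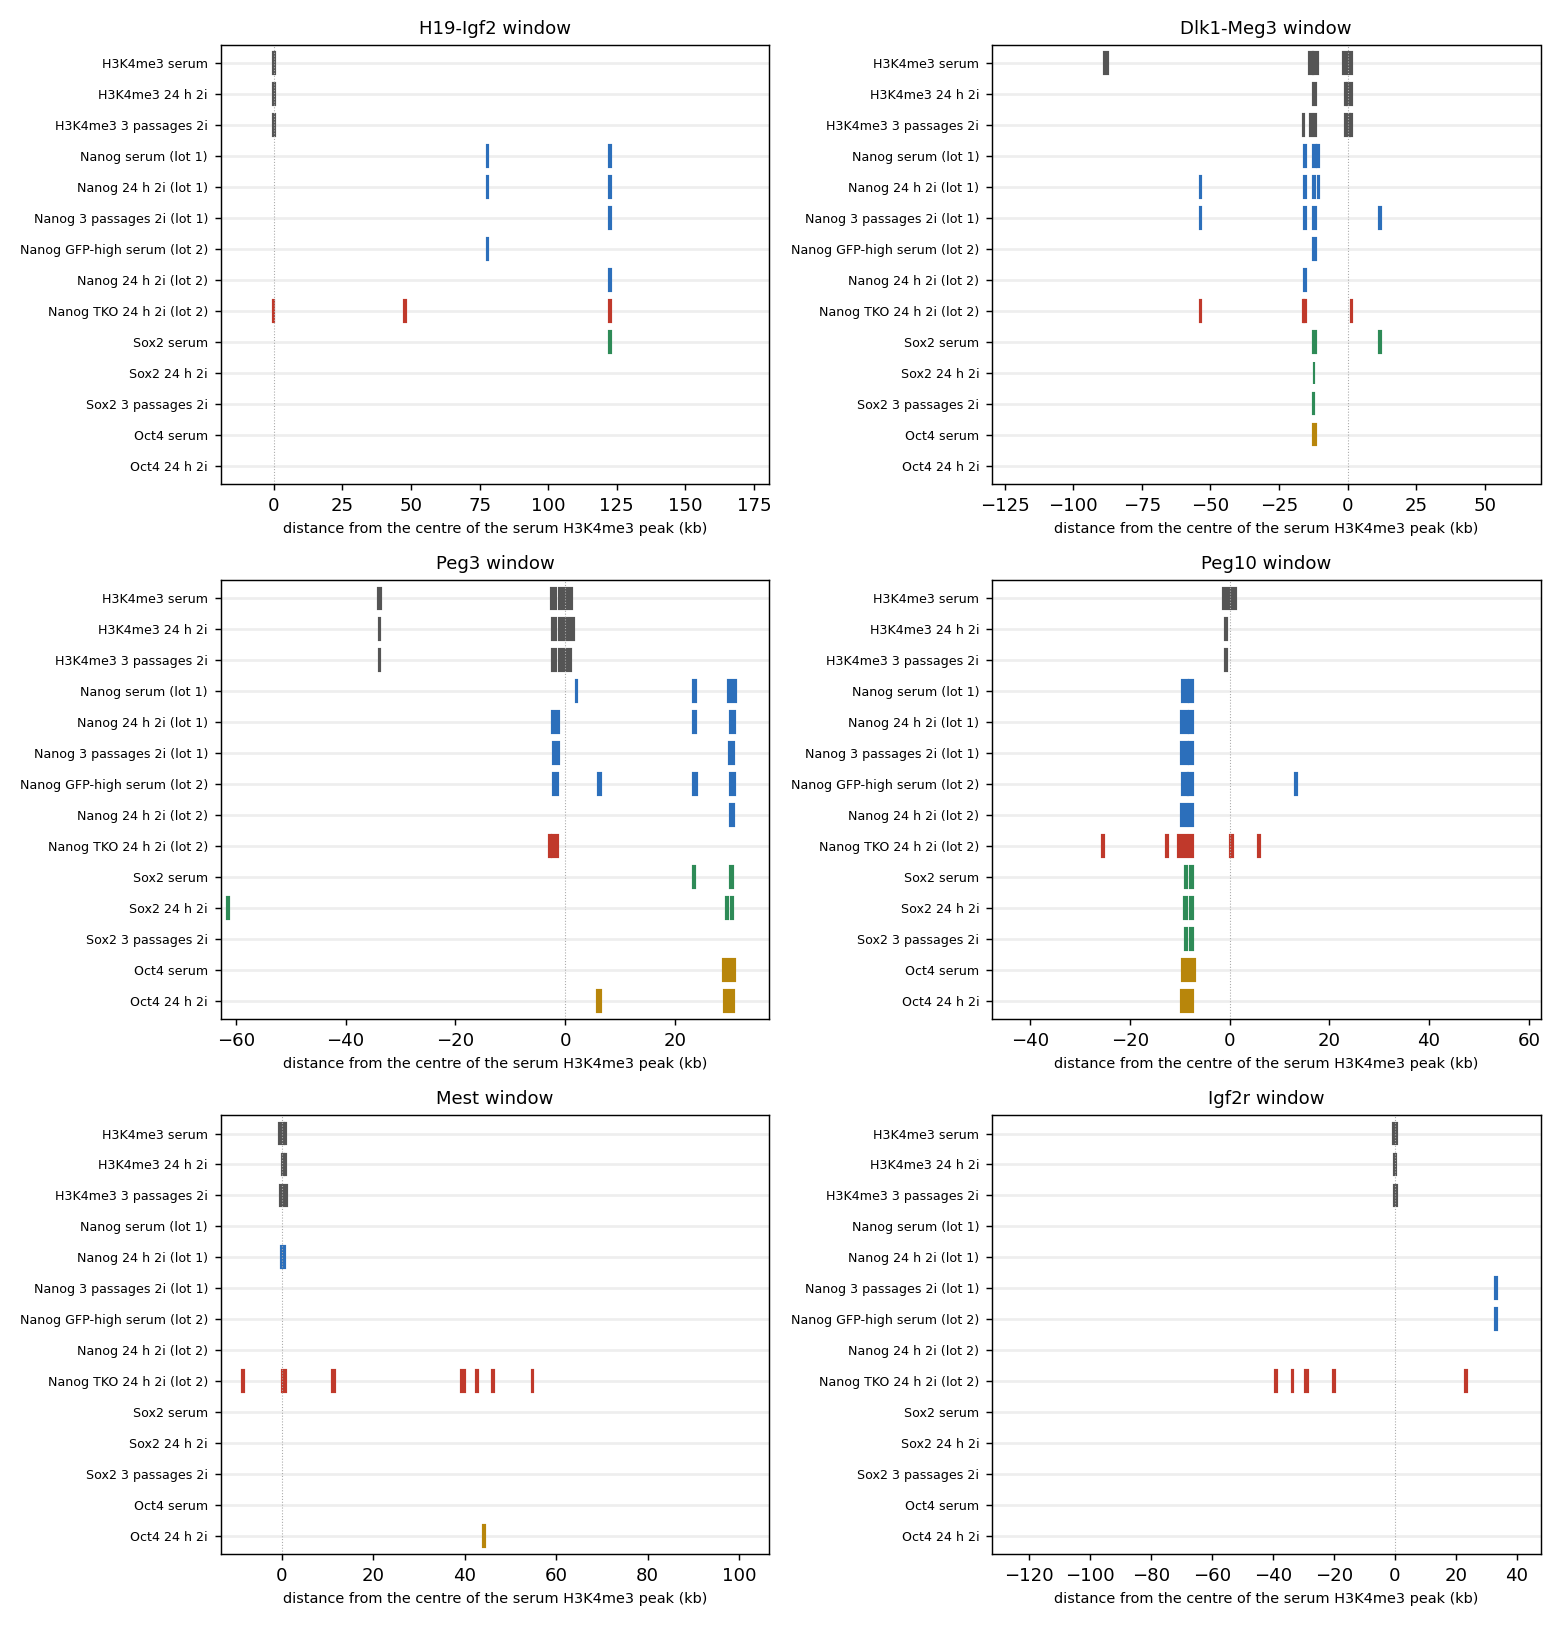
Peaks of the 14 lists in the 6 windows, by distance (kb) from the centre of the serum H3K4me3 peak with the highest −log10 q in the window, with an outline that keeps short peaks visible. Grey is H3K4me3, blue KH2 Nanog, red TKO Nanog, green Sox2 and ochre Oct4. The Peg10 cluster is a column through all 11 factor rows, and the Mest and Igf2r panels hold red bars with few blue ones.

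Counted over the 6 windows, Nanog of lot 1 shared 9 regions between serum and 24 h, with 1 in serum alone and 3 at 24 h alone, against 46.5%, 8.95% and 44.5% of all regions. Between serum and 3 passages 6 were shared, with 4 in serum alone and 4 at 3 passages alone, against 46.8%, 16.9% and 36.4%. With lot 2, 3 regions were in both GFP-high serum and 24 h, 7 only in GFP-high cells and 2 only at 24 h, against 47.6%, 33.2% and 19.2%. The 1 region that lot 1 called in serum and not at 24 h was in the Peg3 window, from 6684692 to 6685035, with a −log10 q of 14.02 close to the lowest of its list, 13.99.

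For Sox2, 4 regions were shared by serum and 24 h, 3 were of serum alone and 2 of 24 h alone, against 43.9%, 22.7% and 33.5%. Both regions only at 24 h were in the Peg3 window, and each had a −log10 q below 10. Between serum and 3 passages 3 were shared, with 4 in serum alone and 0 at 3 passages alone, against 43.5%, 42.6% and 13.8%. Oct4 shared 2 regions between serum and 24 h, with 1 in serum alone and 2 at 24 h alone, against 45.8%, 11.1% and 43.1%. The Oct4 regions of 24 h alone had folds of 18.0 in the Peg3 window, from 6688558 to 6689391, and 16.8 in the Mest window, from 30687289 to 30687884. The latter had a −log10 q of 87.1, just above the lowest value of its list, 85.9. With so few regions a single peak near the limit of a list moves these counts.

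**Figure D4:**
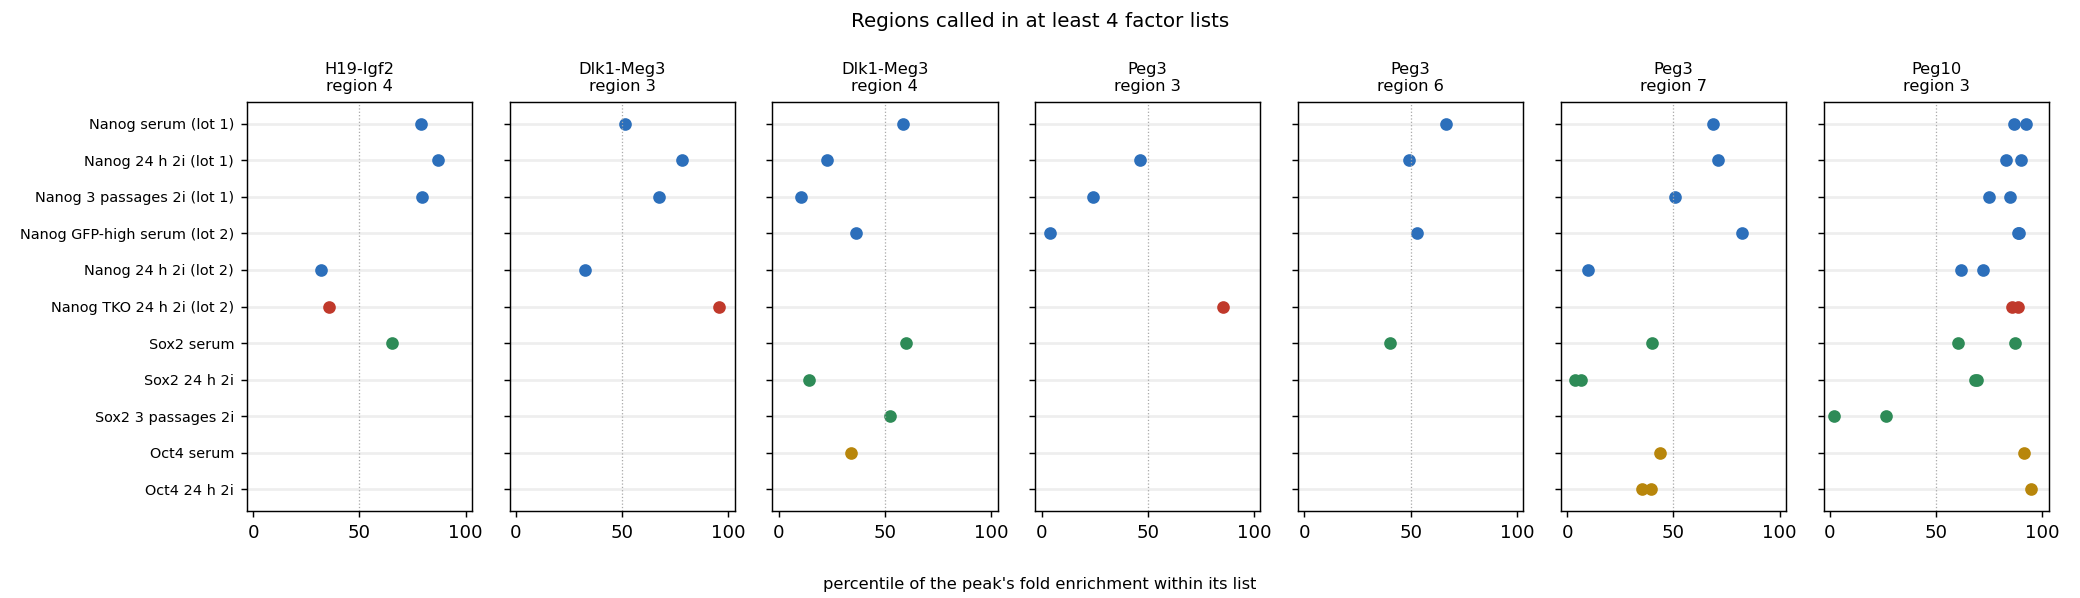
The 7 factor regions called in at least 4 lists, numbered along each window, with the percentile of each peak's fold within its own list (x axis) for the 11 factor lists (rows). A pair of points in a row is a pair of peaks, and an empty row is a list without a peak. TKO Nanog stands at 95.5 in Dlk1-Meg3 region 3 and at 85.3 in Peg3 region 3, above the KH2 Nanog points. In H19-Igf2 region 4 it stands at 35.8, below the KH2 points of lot 1. It is missing from Dlk1-Meg3 region 4 and from Peg3 regions 6 and 7.

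Nanog in TKO cells was set against KH2 cells at 24 h with the same antibody lot. The labels hold 1 sample for each of these lists. In the windows 4 regions were called in both lists, 23 only in TKO cells and 1 only in KH2 cells, against 33.1%, 51.8% and 15.2% over the genome. On chromosomes 6, 7, 12 and 17 the share of TKO cells alone was 65.9%, 50.7%, 49.7% and 48.5%. It was 11 of 13 regions in the windows on chromosome 6 and 12 of 15 in the others. The 1 KH2 region was that of the Peg3 window described above, from 6712882 to 6713509 in this list, with a fold of 6.58. The labels name KH2 for the control cells and no line for the TKO cells, so the loss of the methyltransferases and a possible difference in line cannot be told apart here.

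Since the KH2 list of lot 2 is the shorter of the pair, TKO regions were also set against all 5 KH2 Nanog lists. Of 26 TKO regions in the windows, 20 met no KH2 Nanog peak of any condition or lot, and 6 did. Over the whole TKO list 37.7% of regions met none. By window these were 6 of 7 regions in Mest, 5 of 5 in Igf2r, 4 of 5 in Peg10, 2 of 3 in H19-Igf2, 2 of 4 in Dlk1-Meg3 and 1 of 2 in Peg3. Some lay directly beside regions that KH2 cells held. In the Dlk1-Meg3 window, one ended at 110763681, just before a region shared with KH2 that starts at 110763741. The Peg3 one ended at 6680272, just before a shared region that starts at 6680416. A count with such near peaks joined was not made against the 5 lists. All 20 were in no Sox2 or Oct4 list, as were 98.6% of such TKO regions over the genome. In the other direction, 10 of 16 KH2 Nanog regions in the windows had no TKO peak, where 56% lacked one over the genome.

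Each KH2 Nanog list had few regions of its own in the windows. GFP-high cells had 2 regions of 9 that no other Nanog list held, serum of lot 1 had 1 of 9, 3 passages had 1 of 9, and both 24 h lists had 0, of 11 with lot 1 and 4 with lot 2. Over the genome such shares were 9.29% for GFP-high cells, 10.1% for serum of lot 1 and 4.25% for 3 passages. For the 24 h lists they were 16.1% with lot 1 and 3.91% with lot 2. The window shares of GFP-high cells, 22.2%, and of 3 passages and serum of lot 1, 11.1% each, were above those of their whole lists. They rest on 2, 1 and 1 regions, too few to read as an excess.

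Chromosome 6, which carries the Peg10 and Mest windows, was rich in TKO peaks as a whole. It held 9.50% of the TKO list and 5.98% to 6.17% of the KH2 Nanog lists, and 50.7% of its TKO regions met no KH2 Nanog peak. In the 2 windows on chromosome 6 there were 10 such regions of 12, and in the other 4 windows 10 of 14, against 36.3% of TKO regions outside chromosome 6. The TKO list had 54.5 peaks per Mb in the Peg10 window and 58.3 in the Mest window, beside 24.5 on chromosome 6. The KH2 Nanog lists had 18.2 to 27.3 in the Peg10 window, beside 9.03 to 16.7 on that chromosome. The highest was GFP-high, with 27.3 beside 10.61, a larger ratio than that of TKO cells. In the Mest window the KH2 Nanog lists had 0 to 8.33. In the Igf2r window the TKO list had 27.8, beside 14.4 on chromosome 17. The KH2 Nanog lists had 0 to 5.56 there, beside 8.87 to 17.5. The TKO counts in the H19-Igf2, Dlk1-Meg3 and Peg3 windows, at 15, 20 and 20 per Mb, were closer to the 12.3 to 12.8 of their chromosomes. The part of chromosome 6 in the Peg10 and Mest counts was not tested.

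In windows 50 kb wider on each side, 25 of 42 TKO regions met no KH2 Nanog peak, so the added flanks held 5 more such regions. With the 6 Nanog lists made equally long, the count was 12 of 15, where 27.1% was found over the genome.

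The Mest window had 6 TKO regions without a KH2 peak. They started at 30634641, 30654462, 30682492, 30685953, 30689273 and 30698020, in a window that ran to 30.75 Mb. Those from 30682492 on lay closer together. The strongest of them, at 30689273 to 30689788, reached a fold of 20.5 and a −log10 q of 115.2, at percentile 82.1 of the TKO list. It was 45232 bp from the nearest H3K4me3 summit. The TKO region from 30643387 to 30644244, with a fold of 16.5, lay instead on the H3K4me3 region, 42 bp from a summit, and was also called at 24 h of lot 1 in KH2 cells, with a fold of 6.85.

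The 5 TKO regions of the Igf2r window had folds of 8.10 to 14.5, and none met H3K4me3. The strongest, on chromosome 17 from 12928465 to 12928938, stood at percentile 69.4 of the TKO list. The longest, from 12932594 to 12933792, was 1199 bp long, at percentile 93.9 by length, with a fold of 10.9. The only KH2 Nanog region of that window, from 12994995 to 12995784, was called at 3 passages and in GFP-high cells with a fold of 8.16 in each, and not in TKO cells.

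In the Peg10 window the strongest TKO region without a KH2 peak lay from 4684834 to 4685292, with a fold of 13.0, near the shared cluster. Another, from 4697830 to 4698436, with a fold of 7.36, overlapped the H3K4me3 peak of serum only. The H3K4me3 peaks of 24 h and 3 passages ended before it, at 4697147 and 4697208. In the H19-Igf2 window the TKO region from 149766968 to 149767646 had a fold of 11.4 and met no other peak, and the one from 149719084 to 149719581, with 6.45, had its summit 7 bp from that of serum H3K4me3. In the Dlk1-Meg3 window the region from 110780893 to 110781243 had 10.1, and in the Peg3 window the one from 6679844 to 6680272 had 5.84. The Dlk1-Meg3 region met H3K4me3 in all 3 lists, and the Peg3 region met that of serum only.

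Of the 20 TKO regions without a KH2 Nanog peak, 5 met an H3K4me3 peak of KH2 cells in any condition. Over the genome 10.3% of such regions did. Only those from 149719084 in the H19-Igf2 window and from 110780893 in the Dlk1-Meg3 window met the 24 h list. The Peg10 and Peg3 regions met H3K4me3 of serum alone, and the Dlk1-Meg3 region from 110763300 that of 3 passages alone. Peaks of H3K4me3 were also denser in the windows than over the genome. H3K4me3 in TKO cells was not analysed here. The folds of the 20 ran from 5.84 to 20.5 and their −log10 q from 28.9 to 115.2, where the list starts at 27.6. The 4 TKO peaks of highest fold in the windows were at regions that KH2 cells also held. These were the Dlk1-Meg3 region with 46.3, the Peg10 cluster with 27.4 and 23.7, and the Peg3 region on H3K4me3 with 23.4.

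**Figure D5:**
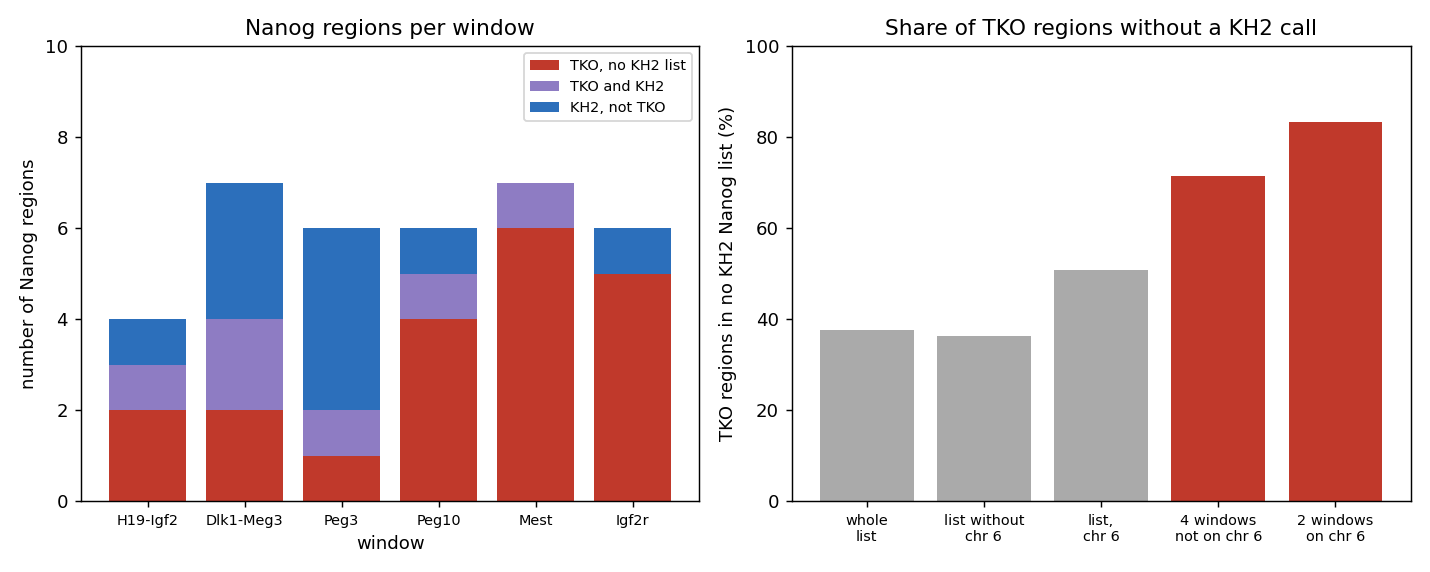
Left, number of Nanog regions per window that were called in TKO cells and no KH2 list (red), in both (purple) or in KH2 cells alone (blue). Right, percent of TKO Nanog regions without a KH2 Nanog peak in the whole list, outside chromosome 6 and on it (grey), at 37.7, 36.3 and 50.7, and in the windows (red), at 71.4 and 83.3.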

How the data were processed

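ChIP-seq peaks were analysed from 14 lists, which stand for 22 of the 36 samples in the labels. MACS2, BWA 0.5.7, Bowtie 0.12.7 and the build mm9 are named per the submitters' processing notes. The sources used here do not say which aligner made which list or how the deposited peaks were selected. Per the peak names in the deposited files, the authors called peaks on pooled replicates against a control. The deposited columns used were fold enrichment, a ratio to the control, the q-value as −log10 q, and the offset of the summit in bp from the start, per the narrowPeak layout. The authors deposited no counts, so depth is unknown.

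Positions were counted from 1, and only the autosomes, X and Y were kept. A peak was a member if it overlapped a window by at least 1 bp. Peaks overlapping by at least 1 bp were joined into regions with Python 3.11.15, by code tested on simulated intervals. For density, each chromosome's length was its last peak end. Named regions were, per window, the H3K4me3 region with the largest −log10 q, the factor region in most lists, the strongest factor peak and, of the regions called at 24 h of lot 2 in only TKO or only KH2 cells, those of highest fold. Other named regions were chosen after their values were seen, and members and lists were chosen with earlier results of these data known. H3K27me3, whole-cell extract and RNA samples were not analysed here.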

Additional observations from a re-analysis of the deposited data

How the results depend on the processing

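No paired analysis was possible because each condition had 1 pooled list and no value per replicate, so no replicate could be left out. Of 202 recomputed values, 151 lay within 1.5 times the value as deposited, among them all 27 with an overlap of 50% of the shorter peak. The counts are small, and none of the alternatives below gives a test. The TKO count against 5 KH2 lists and the H3K4me3 length were added after the data were seen.

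With a minimum −log10 q of 10, H3K4me3 at 24 h had 7 peaks in the windows and Sox2 at 24 h had 2. H3K4me3 regions only in serum against 24 h were then 5. For Sox2 in serum and at 24 h, 2 were shared, 5 were of serum alone and 0 of 24 h alone.

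With lists of 1 factor at equal length, the windows held 7 Nanog peaks at 24 h and 6 at 3 passages of lot 1, 16 in TKO cells, 2 of Sox2 at 24 h and 2 of Oct4 at 24 h. H3K4me3 against 24 h then had 1 region only in serum and 1 only at 24 h, and against 3 passages 0 only at 3 passages. Nanog of lot 1 had 3 only in serum and 1 only at 24 h, and 1 only at 3 passages. Lot 2 had 4 only in GFP-high cells. TKO against KH2 had 2 only in KH2 and 13 only in TKO cells, and 12 TKO regions met none of the 5 KH2 lists. Sox2 had 2 in both and 0 only at 24 h, and 2 only in serum against 3 passages. Oct4 had 0 only at 24 h.

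With a common lowest −log10 q, H3K4me3 at 24 h had 4 peaks, Nanog at 3 passages 6, Sox2 at 24 h 2 and Sox2 at 3 passages 1. H3K4me3 had 4 regions in both serum and 24 h and 6 only in serum, and 0 only in serum against 3 passages. The length covered by H3K4me3 at 24 h was 29.9% of that in serum. Nanog had 1 region only at 3 passages, and 4 only in GFP-high cells. Sox2 shared 2 between serum and 24 h, with 5 in serum alone and 0 at 24 h alone, and 1 in both serum and 3 passages.

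With peaks up to 1000 bp apart joined, 1 H3K4me3 region was only in serum against 24 h, and 1 Sox2 region only at 24 h. Windows 50 kb wider on each side held 21, 32 and 25 Nanog peaks of lot 1 in serum, at 24 h and at 3 passages. They held 23 in GFP-high cells, 15 in KH2 cells at 24 h of lot 2 and 43 in TKO cells, 12 and 6 of Sox2 at 24 h and 3 passages, and 5 of Oct4 in serum. Without the chromosome 6 windows 10 TKO regions met no KH2 Nanog list. The cause of these differences was not tested, beyond fewer peaks or wider windows by construction.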
